A study of Bos taurus with 24 samples.

Results

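The let-7 family of the cow mammary gland was followed in 22 small RNA libraries as 10 listed miRNAs: bta-let-7a-5p, bta-let-7b, bta-let-7c, bta-let-7d, bta-let-7e, bta-let-7f, bta-let-7g, bta-let-7i and bta-miR-98, which are the strands usually loaded into the silencing complex, and bta-let-7a-3p, the opposite arm of the let-7a hairpin. The prefix for the cow is left out below. The members were taken by exact name out of 796 miRNAs listed, and all 10 had counts in all 22 libraries, the lowest being 82. The libraries came from mammary gland biopsies of 5 Holstein (HOLS) and 6 Montbéliarde (MONT) multiparous midlactation cows. Each cow was biopsied on day 0, while it ate freely (CONT), and on day 6 of feed restriction (REST), with the biopsies taken from alternating rear glands of the udder. The labels give the restricted feed as 60% of the net energy for lactation, and the study's methods give a lower share. A further HOLS cow named in the labels has no column of counts and was not analysed here. The study reports that a HOLS cow was excluded for mastitis. No cow was sampled at both dates without restriction, so restriction and the time and site of the biopsy cannot be told apart. The study reports a smaller share of clean reads in MONT than in HOLS libraries, so breed and library quality cannot be told apart either.

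A let-7 gene is transcribed as a hairpin, which is cut to a short duplex. The guide strand, the 5p arm in this family, is loaded onto an Argonaute protein and represses mRNAs that pair with its seed, while the passenger strand, the 3p arm, is mostly degraded. The guides share their seed and are known for repressing growth and stem cell regulators such as LIN28, HMGA2 and RAS genes, and for being abundant in differentiated tissues. LIN28 in turn blocks the maturation of let-7 hairpins.

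The RefSeq annotation of assembly ARS-UCD2.0 lists 12 bovine hairpin genes for the family, among them 3 for let-7a and 2 for let-7f. The genes of let-7a-1, let-7f-1 and let-7d neighbour each other, as do those of let-7a-3 and let-7b and those of let-7f-2 and miR-98. The let-7c gene lies near miR-99a and a miR-125b gene, let-7a-2 near miR-100 and the other miR-125b gene, and let-7e near miR-99b and miR-125a, whereas let-7i has no other miRNA gene within 100 kb. Mature let-7 miRNAs are near copies of each other, and how reads shared between them were assigned is not given in the sources used here. The counts of let-7b, from 23324 to 80295 per library, were the same as those of miR-3596 in 22 of 22 libraries. RefSeq places the genes of this pair within 100 kb of each other, and the value given for let-7b cannot be told apart from that of miR-3596.

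The total of miRNA counts per library ran from 6087865 to 18913916, and values below, called normalized counts, were scaled with DESeq2 size factors taken jointly over the 22 libraries. The labelled tissue was checked against miRNA markers. The summed normalized counts of 6 epithelial miRNAs, the miR-200 family with miR-205, ran from 139185 to 641434 per library, and the 5 markers of stroma and smooth muscle ran from 1663530 to 4860310. The muscle markers miR-1 and miR-133a together stayed between 424 and 1981, and miR-206 was not listed. No listed marker was at 0 in a whole group. In whole tissue, fewer cells of a type and less RNA per cell cannot be told apart.

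A pair of guides made up most of the family. let-7a-5p held 43.1% of the family's counts and let-7f 26.4% as means over the 22 libraries, and together they held 69.4% ± 2.63 (SD, n = 22), with a range from 64.2% to 73.9%. let-7b followed with 8.95%, let-7i with 7.77%, let-7g with 6.76%, let-7c with 4.55% and miR-98 with 1.57%. let-7e at 0.583% and let-7d at 0.346% were the least abundant guides, and let-7a-3p came to 0.0398%. let-7a-5p was the 11th or 12th most abundant of the 796 miRNAs in each group, and let-7a-3p ranked 161st in HOLS CONT and 182nd in HOLS REST. Counts of mature miRNAs of near equal length were compared without a length correction, and how well each sequence is captured in a library was not measured.

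The order of the members was largely the same in every cow. let-7a-5p stood above let-7f and let-7f above let-7b in 22 of 22 libraries, and the steps from let-7c down to let-7a-3p also held in all 22. The middle of the order did not separate. let-7b was above let-7i in 19 libraries, let-7i above let-7g in 13, and let-7g above let-7c in 18, namely in 10 of 10 HOLS and 8 of 12 MONT libraries.

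**Figure D1:**
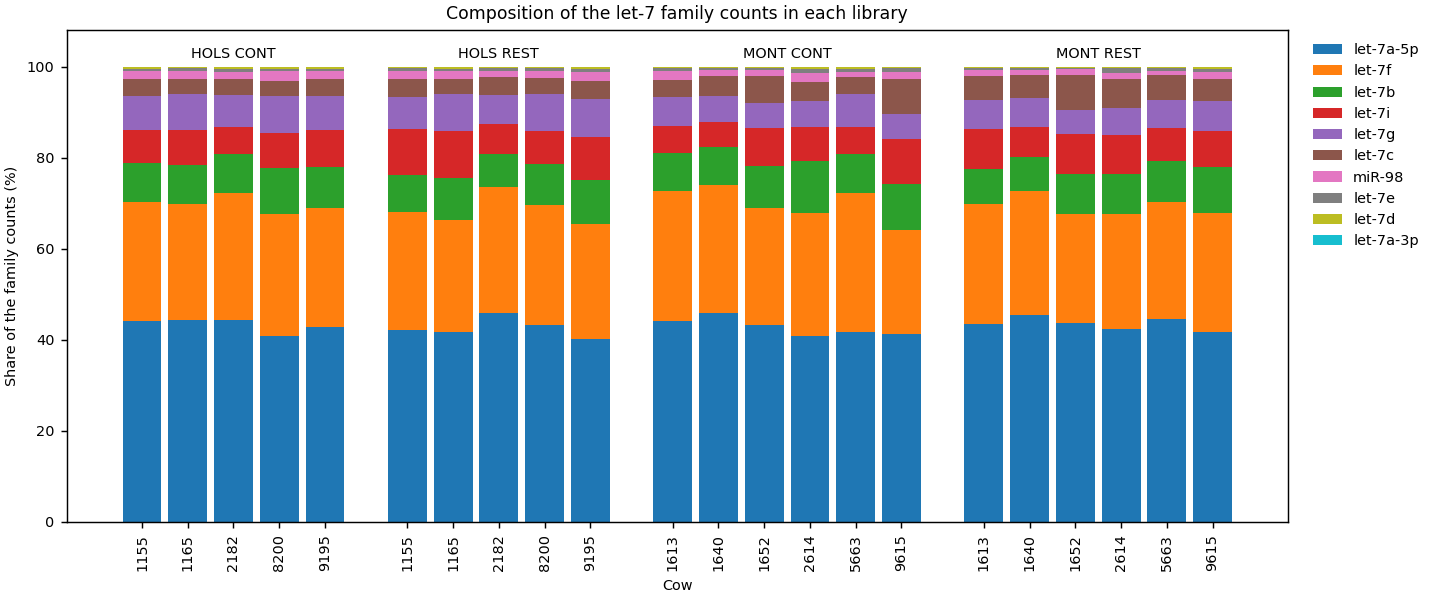
Share of each member in the family's counts (%, y axis) for each of the 22 libraries, ordered by breed, period and cow (x axis). let-7a-5p and let-7f together take from 64.2% to 73.9% of each bar, and the let-7c segment averages 3.48% (CONT) and 3.77% (REST) for HOLS against 4.88% (CONT) and 5.77% (REST) for MONT.

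The family as a whole took 5.04% ± 0.858 (SD, n = 5) of all miRNA counts in HOLS CONT and 4.74% ± 0.995 (n = 5) in HOLS REST. It took 5.09% ± 0.998 (n = 6) in MONT CONT and 5.29% ± 1.17 (n = 6) in MONT REST. These means lay within the spread between cows of a group.

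After 6 days of restriction the passenger arm let-7a-3p was lower in HOLS, and no guide strand changed past the threshold in either breed without the cow as a block. In HOLS, 1 of the 10 members passed the threshold of edgeR (adjusted p of at most 0.05 over all miRNAs tested), and it was let-7a-3p, against 2.41% of the 374 miRNAs tested, all of them lower in REST. In MONT, 0 of 10 members were called by edgeR and 0 by DESeq2, where edgeR called 0.0% of 349 miRNAs. At an unadjusted p under 0.05 the members in MONT numbered 1, let-7a-3p, beside 13.5% of all miRNAs tested. The median log2 fold change over the 10 members was 0.07 in HOLS and 0.04 in MONT, and over all miRNAs tested it was 0.02 and -0.01.

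let-7a-3p, the passenger arm, was at 308, 293, 278, 391 and 267 normalized counts in cows 1155, 1165, 2182, 8200 and 9195 in HOLS CONT. In HOLS REST the same cows had 119, 196, 174, 200.4 and 232. Each cow was lower in REST and the periods did not overlap, which also held for 6.96% of the 388 miRNAs compared between periods in HOLS. The mean went from 307 ± 49.1 to 184 ± 41.9 (SD, n = 5), a log2 fold change of -0.75 (SE 0.18, edgeR adjusted p = 0.0483). With the cow as a block the change was -0.77 with an adjusted p of 0.00977, and 16.3% of the 374 miRNAs were then called. DESeq2 without the block gave -0.75 with an adjusted p of 0.00208 and called 6.95% of the miRNAs. The edgeR call without the block was lost without a filter on low counts (adjusted p = 0.0577) and with cow 1155, 1165, 2182 or 8200 left out (adjusted p from 0.0790 to 0.177), and it held without cow 9195 (adjusted p = 0.0250).

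In MONT CONT, let-7a-3p ran from 132 over a median of 253 to 327 normalized counts. The MONT REST libraries had 120 as the lowest, 140 as the median and 198 as the highest value. It was lower in REST in 5 of 6 cows, and the periods overlapped, as they did for all but 0.258% of the 388 miRNAs. The cow that moved the other way, 9615, had the lowest CONT value, 132, and 147 in REST. The mean was 235 ± 73.3 before and 146 ± 27.8 during restriction (SD, n = 6), a log2 fold change of -0.72 (SE 0.24, edgeR adjusted p = 0.314). Without cow 9615 it was -0.85 with an adjusted p of 0.0338, a setting in which 46 of 358 miRNAs, or 12.8%, were called. The change in MONT minus that in HOLS was 0.10 on the log2 scale (SE 0.30, edgeR adjusted p = 0.991) and its sign varied with the settings, and 0 of 10 members passed this test by edgeR or DESeq2, where edgeR called 0.0% of 388 miRNAs. At an unadjusted p under 0.05 the members numbered 0 as well, beside 0.773% of all miRNAs tested.

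let-7a-5p, the guide strand of let-7a, was at 237805, 256379, 268281, 177470 and 224435 normalized counts in HOLS CONT, in the cow order above. In HOLS REST it was at 231142, 213863, 323801, 219915 and 232240. It was higher in 3 cows and lower in 2, and the log2 fold change was 0.07 (SE 0.15, edgeR adjusted p = 0.852). In MONT it ran from 173307 over a median of 232310 to 307140 before restriction. During restriction the lowest value was 211679, the median 254206 and the highest 324787. The periods overlapped there as well, with a log2 fold change of 0.10 (SE 0.16, edgeR adjusted p = 0.773).

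let-7i, the guide encoded apart from other miRNA genes, had the largest positive log2 fold change of the guides in HOLS. It was at 39232, 44213, 35270, 33850 and 42706 normalized counts in HOLS CONT and at 55807, 53164, 47133, 37027 and 55480 in HOLS REST. All 5 cows were higher in REST, and the periods overlapped only through cow 8200. The log2 fold change was 0.34 (SE 0.13, edgeR adjusted p = 0.179), and with the cow as a block it was 0.33 (SE 0.09, edgeR adjusted p = 0.0386), where 8.02% of all miRNAs tested were called higher. In MONT, let-7i ran from 29417 over a median of 35704 to 49954 before restriction. During restriction it ran from 42533 over 44783 to 53328, with higher values in 5 of 6 cows. The log2 fold change was 0.25 (SE 0.14, edgeR adjusted p = 0.437).

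let-7c, the guide encoded near miR-99a and a miR-125b gene, had a log2 fold change of 0.22 (SE 0.16, edgeR adjusted p = 0.452) in HOLS and of 0.32 (SE 0.20, edgeR adjusted p = 0.437) in MONT. miR-98, which is a let-7 family guide by its seed, had -0.10 (SE 0.11, edgeR adjusted p = 0.627) in HOLS and -0.23 (SE 0.15, edgeR adjusted p = 0.448) in MONT. Neither passed the threshold. let-7b, let-7d, let-7e, let-7f and let-7g lay between these guides, so that all 9 guides lay from -0.10 to 0.34 in HOLS and from -0.23 to 0.32 in MONT, and in both breeds the periods overlapped for each of them.

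**Figure D2:**
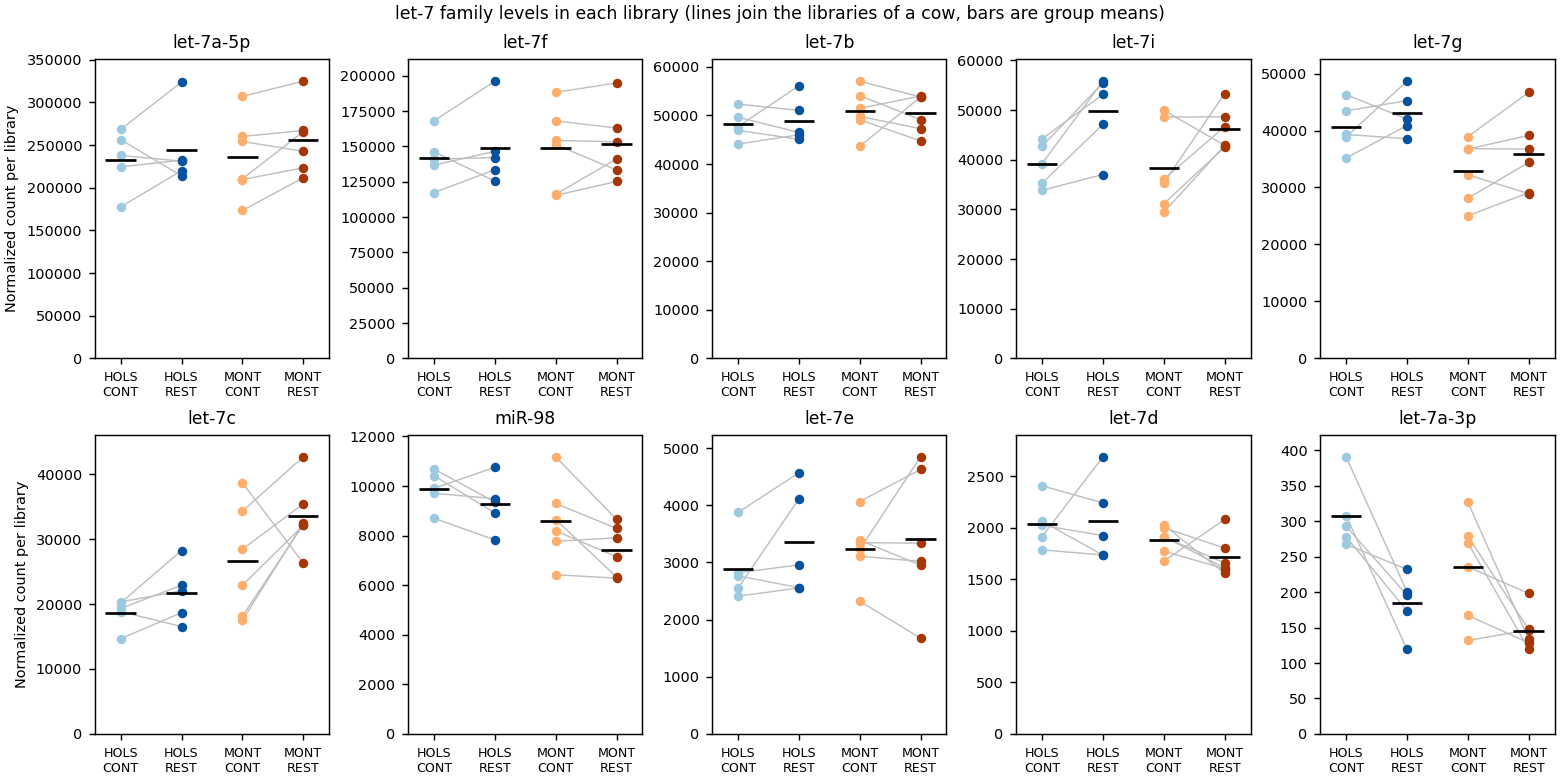
Normalized counts (y axis, from 0) of each member in HOLS CONT, HOLS REST, MONT CONT and MONT REST (x axis), with a point per library, grey lines joining the libraries of a cow and black bars for group means. The HOLS points of let-7a-3p do not overlap between periods, with CONT values of 267 to 391 above REST values of 119 to 232, whereas each guide overlaps.

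**Figure D3:**
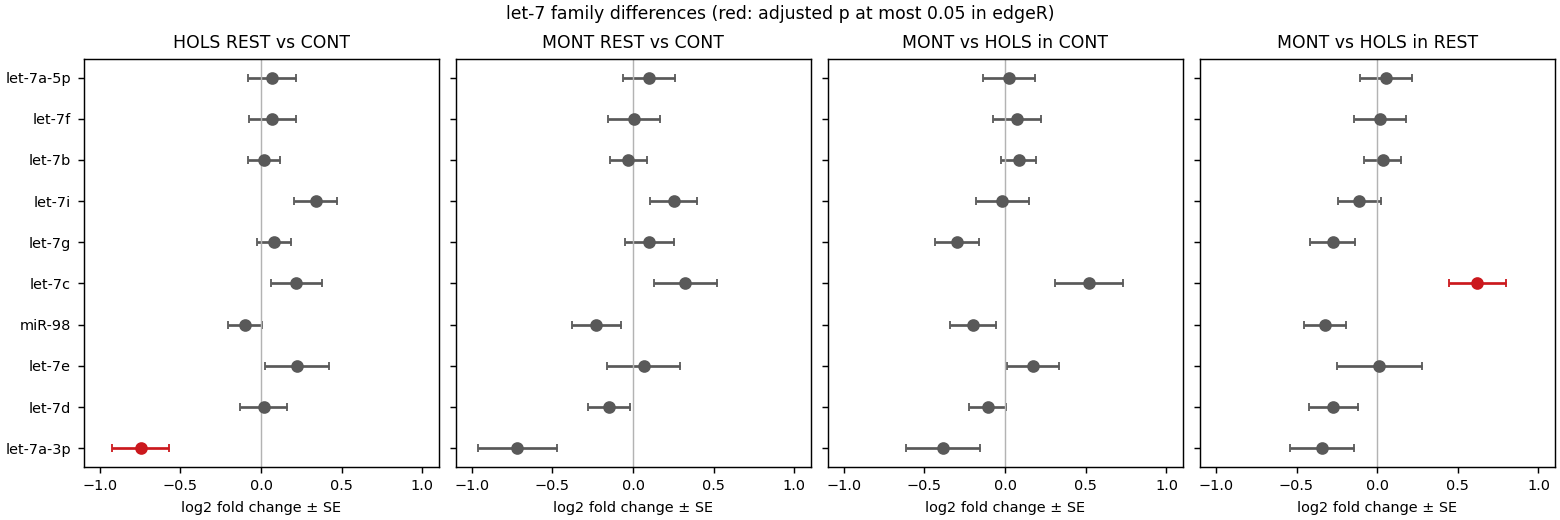
Log2 fold change with its SE (x axis) of each member (y axis) in 4 comparisons from edgeR, with red points for an adjusted p of at most 0.05. Red points are let-7a-3p in HOLS REST against CONT at -0.75 and let-7c in MONT against HOLS in REST at 0.62.

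The arms of let-7a were then compared within a library, where scaling between libraries does not enter. The 3p arm was rare throughout, with 82 to 422 counts per library beside 112452 to 425108 counts of the 5p arm. RefSeq lists 3 let-7a hairpin genes, and the counts do not show which of them each arm came from. In HOLS CONT its share of the let-7a counts was 0.129%, 0.114%, 0.104%, 0.220% and 0.119% in cows 1155, 1165, 2182, 8200 and 9195. In HOLS REST the shares were 0.0516%, 0.0914%, 0.0536%, 0.0910% and 0.0998%. All 5 cows had a lower share in REST, and the highest REST share, of cow 9195, lay below the lowest CONT share, of cow 2182. These 2 shares have overlapping 95% Wilson intervals, from 0.0883% to 0.113% and from 0.0900% to 0.119%. Such intervals cover counting error only, since reads copied by PCR are not independent molecules.

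In MONT CONT the share ran from 0.0628% over a median of 0.0901% to 0.188%, and in MONT REST from 0.0448% over 0.0582% to 0.0656%. The MONT REST libraries lay close together, with an SD of 0.00767% against 0.0486% in CONT. The CONT share of cow 9615, the lowest, reached into the REST range, and this cow alone did not have a lower share in REST (a log2 change of 0.07).

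The mean share went from 0.137% ± 0.0471 to 0.0775% ± 0.0230 in HOLS (SD, n = 5) and from 0.105% ± 0.0486 to 0.0571% ± 0.00767 in MONT (SD, n = 6). On the log2 scale of 3p over 5p counts, each with a pseudocount of 1, the difference was -0.82 (SE 0.28) in HOLS, a ratio 0.566 times that in CONT. The two-sided exact permutation test gave p = 0.00794, the smallest it can give for 5 against 5 libraries, and 0.0216 after Benjamini-Hochberg adjustment over the 5 comparisons made of this ratio. In MONT the difference was -0.77 (SE 0.27), a ratio 0.587 times that in CONT, with an exact permutation p of 0.00866 and an adjusted p of 0.0216. Taking cows as pairs, the exact permutation test by sign flips gave p = 0.0625 in both breeds, or 0.156 adjusted. The smallest p this test can give is 0.0625 with the 5 HOLS cows and 0.03125 with the 6 MONT cows.

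The size of the change varied between the cows of each breed. Per cow, the log2 change in HOLS was -1.32, -0.32, -0.95, -1.27 and -0.25 in the order above. In MONT it was -1.20, -0.33, -0.31, -1.58, -1.25 and 0.07 in cows 1613, 1640, 1652, 2614, 5663 and 9615. In each breed 3 cows had changes below -0.9 and the others had changes above -0.4. The MONT mean minus the HOLS mean was 0.05 (SE 0.35, exact permutation p = 0.879). The level of the ratio did not differ between breeds past the threshold, at -0.44 for MONT minus HOLS in CONT (SE 0.32, exact permutation p = 0.212, adjusted 0.265) and -0.39 in REST (SE 0.22, exact permutation p = 0.104, adjusted 0.173).

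**Figure D4:**
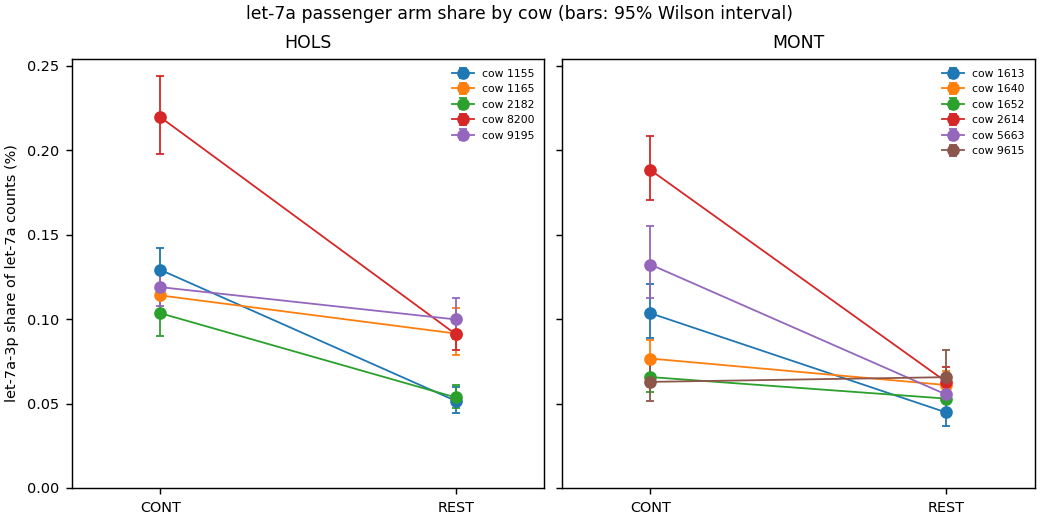
Share of let-7a-3p in the let-7a counts (%, y axis from 0) in CONT and REST (x axis) for each HOLS (left) and MONT (right) cow, with 95% Wilson intervals that cover counting error only. The share falls from CONT to REST in 5 of 5 HOLS and 5 of 6 MONT cows, and cow 9615 goes from 0.0628% to 0.0656%.

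Other miRNAs with both arms listed gave a background for this ratio. The tables list 63 such pairs by name, of which 26 had both arms past the filter on low counts. In HOLS the less abundant arm was lower relative to the other in REST in 18 of 26 pairs, with a median difference of -0.17. let-7a had the largest fall of the 26, at -0.82, and miR-193a the largest rise, at 0.67. Pairs with an exact permutation p of at most 0.05 made up 19.2% of the 26 in HOLS, and pairs without overlap between periods 11.5%. In MONT the less abundant arm was lower in 15 of 26 pairs with a median difference of -0.14, and let-7a had the second lowest value at -0.77. There, 11.5% of pairs had an exact permutation p of at most 0.05 and 3.85% did not overlap. When limma was fitted to all 26 pairs, the adjusted p of let-7a was 0.110 in HOLS and 0.135 in MONT, and with the cow as a block it was 0.0707 and 0.0694. Without the block limma called 3.85% of the pairs in HOLS and 0.0% in MONT. The arm result thus passed the unpaired exact test of this single ratio. It did not pass the exact test with cows as pairs or an adjustment over all arm pairs. The study itself lists let-7a-3p as lower in HOLS REST, so the HOLS test of this ratio is not independent of a known result.

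**Figure D5:**
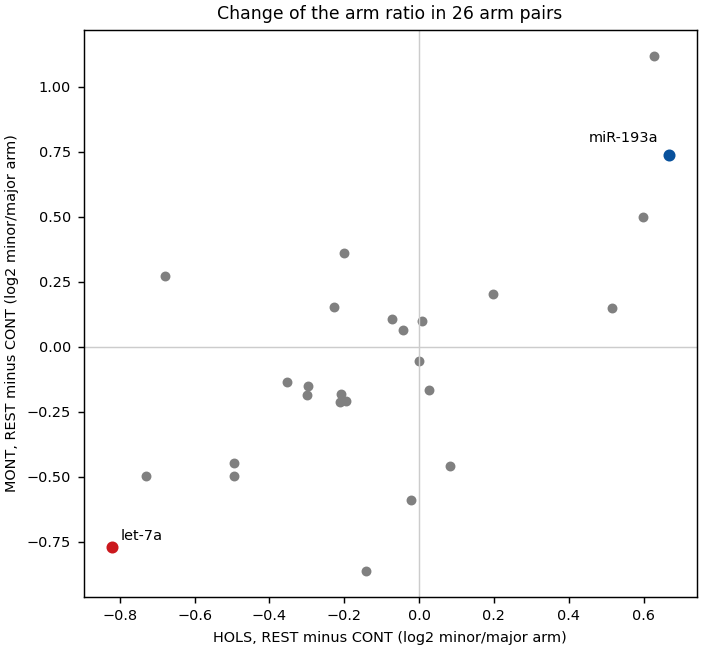
Change of the log2 ratio of the less abundant over the more abundant arm from CONT to REST in HOLS (x axis) and MONT (y axis), with a point for each of 26 arm pairs. let-7a (red) lies at -0.82 and -0.77, and miR-193a (blue), the largest rise in HOLS, at 0.67 and 0.74.

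Markers of cell types were also compared between the periods. Of the 6 epithelial miRNAs, 4 had a negative log2 fold change in HOLS and 5 in MONT, with medians of -0.21 and -0.46, and none was called by edgeR without the block. With the cow as a block, 3 of the 6 were called lower in HOLS, beside 8.29% of all miRNAs, and none in MONT. The summed epithelial level of HOLS overlapped between periods, with 402912 to 514772 before and 267405 to 641434 during restriction, and that of MONT did so with 194561 to 527079 and 139185 to 372027. All 5 markers of stroma and smooth muscle had positive log2 fold changes in both breeds, with medians of 0.31 and 0.66. Without the block edgeR called no marker of any list in HOLS. With the block edgeR called 2 of the stroma and smooth muscle markers higher in HOLS, miR-143 and miR-145. It also called 2 of 5 leukocyte markers higher there, miR-155 and miR-142-5p. Further calls there were 1 of 2 endothelial markers (miR-126-3p) and 1 of 3 red blood cell markers (miR-486). Of all miRNAs tested in HOLS with the block, 8.02% were called higher. The other 2 red blood cell markers were below 0 in that fit, miR-451 at -0.14 and miR-144 at -0.13. No marker of any list was called in MONT, where all 3 red blood cell markers were below 0 with and without the block. Summed leukocyte markers lay between 19625 and 29790 in HOLS CONT against 18827 to 43596 in REST, endothelial markers between 273690 and 361948 against 326521 to 483727, and red blood cell markers between 26089 and 43359 against 38171 to 49031. The summed stroma and smooth muscle markers in HOLS were 1663530 to 2540550 before and 2478430 to 3173580 during restriction. The MONT sums were 2097340 to 4202640 and 2350170 to 4860310. None of these markers was at 0, and their part in the let-7a-3p result was not tested.

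Between the breeds, let-7c was the only member that edgeR called, and breed cannot be told apart from library quality. Before restriction 0 of 10 members were called by edgeR and 0 by DESeq2, and edgeR called 0.556% of 360 miRNAs. At an unadjusted p under 0.05 the members numbered 2, let-7c and let-7g, beside 20.3% of all miRNAs tested. In REST 1 of 10 members was called, let-7c, which was higher in MONT, against 15.3% of 378 miRNAs called and 9.79% called higher in MONT.

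let-7c was at 22033, 16540, 28232, 18656 and 22887 normalized counts in HOLS REST, in the order of cows above. In MONT REST it ran from 26304 over a median of 32329 to 42661. The groups overlapped through HOLS cow 2182 and MONT cow 9615. The means were 21670 ± 4474 (SD, n = 5) and 33523 ± 5367 (SD, n = 6), a log2 fold change of 0.62 (SE 0.18, edgeR adjusted p = 0.0289). Without HOLS cow 1165 it was 0.54 with an adjusted p of 0.0684, and it was called with each of the other 10 cows left out. In CONT the same difference was 0.52 (SE 0.21, edgeR adjusted p = 0.213), between 18662 ± 2316 in HOLS (SD, n = 5) and 26648 ± 8682 in MONT (SD, n = 6). That the difference was larger in REST than in CONT was not shown, since no member passed the test of breed by period.

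The members let-7g, miR-98, let-7a-3p, let-7d and let-7i had lower values in MONT in both periods without passing the threshold of edgeR. let-7d had log2 fold changes of -0.11 in CONT and -0.27 in REST. let-7i had -0.02 and -0.11, and its sign turned under some settings. let-7g had log2 fold changes of -0.30 (SE 0.13, edgeR adjusted p = 0.240) in CONT and -0.28 (SE 0.14, edgeR adjusted p = 0.188) in REST. miR-98 had -0.20 (SE 0.14, edgeR adjusted p = 0.431) and -0.32 (SE 0.13, edgeR adjusted p = 0.104), and DESeq2 called the second (-0.33, adjusted p = 0.0447) among 23.5% of all miRNAs. let-7a-3p had -0.38 (SE 0.23, edgeR adjusted p = 0.353) and -0.34 (SE 0.20, edgeR adjusted p = 0.230). Over the 10 members the median was 0.0018 in CONT and -0.05 in REST, and over all miRNAs tested 0.01 and 0.03.

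A list of 6 miRNAs encoded near let-7c, let-7a-2 or let-7e was also compared. Other miRNA genes that RefSeq places within 100 kb of a let-7 gene, those of miR-135a, miR-2443, miR-12038 and miR-3596, are not in it. In REST, 6 of 6, namely miR-99a-5p, miR-99a-3p, miR-125b, miR-100, miR-99b and miR-125a, were called higher in MONT by edgeR, beside 9.79% of all 378 miRNAs. Their log2 fold changes ran from 0.62 to 1.11 with a median of 0.68, and from 4 to 6 were called with a cow left out. let-7b, whose counts are also those of miR-3596, had 0.04 in the same comparison (SE 0.11, edgeR adjusted p = 0.870). In CONT all 6 were also above 0, with a median of 0.48. There, 0 were called by edgeR and 1 by DESeq2, which called 5.56% of all miRNAs. At an unadjusted p under 0.05 in edgeR they numbered 4, beside 20.3% of all miRNAs. Between periods, edgeR called 0 of the 6 in HOLS, where the median was 0.29, and 0 in MONT, where it was 0.43, and DESeq2 called 0 in both. At an unadjusted p under 0.05 they numbered 1 in HOLS, beside 23.3% of all miRNAs, and 2 in MONT, beside 13.5%. With the cow as a block 1, miR-100, was called higher in HOLS, beside 8.02% of all miRNAs, and without cow 9615 4 were called higher in MONT, beside 7.26%. let-7a-5p and let-7e, whose genes lie beside miR-100 and miR-99b, did not differ past the threshold between breeds. let-7a-5p is also made from hairpins elsewhere. In the same REST comparison 3 of 5 markers of stroma and smooth muscle were called higher in MONT, with a median of 0.97. Of the 6 epithelial markers 2 were called lower and 1 higher. Among all 378 miRNAs tested there, 9.79% were called higher and 15.3% in either direction. The part of these markers in the let-7c result was not tested.

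Across the 22 libraries, which share their scaling and hold each cow at both periods, members differed in how they varied together. let-7a-5p and let-7f had the highest Pearson correlation of log2 normalized counts, 0.92, and these near copies could share reads. Over the 36 pairs of guides the correlation ran from -0.42 to 0.92 with a median of 0.21, and 7 were below 0. let-7a-3p correlated with the guides from -0.75, with let-7c, to 0.46, with miR-98, and its correlation with its own guide let-7a-5p was -0.24. Of the 378 miRNAs compared, those outside the family whose levels were most like those of let-7a-5p were miR-128 at 0.69, miR-1468 at 0.65 and miR-425-5p at 0.63. Those most like let-7a-3p were miR-29d-5p at 0.83, miR-200b, an epithelial marker, at 0.81, and miR-30f at 0.80. These values describe the libraries and pool differences between breeds, periods and cows.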

How the data were processed

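Small RNA of mammary gland biopsies was sequenced, and the deposited counts cover 22 libraries. The authors trimmed reads with the FASTX-Toolkit, filtered them by size, and quantified and annotated them with ncPRO-seq and miRDeep2 on the btau5.0.1 genome and miRBase. The deposited counts are whole numbers without scaling. The deposited normalized counts, a signal that the authors obtained with DESeq2 1.18.1 within each breed, and the authors' columns of log2 fold changes, p-values and adjusted p-values were not used. The submitters' processing notes also name bcl2fastq 2.17.1.14. The total count per library limits the precision of rare members, of which the lowest count was 82.

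Counts were tested with edgeR 4.0.16 in R 4.3.3, using TMM scaling, filterByExpr (minimum count 10) and quasi-likelihood F tests fitted per comparison without the cow, since the study's methods name no cow term, and Benjamini-Hochberg adjustment over all miRNAs tested (threshold 0.05). SE values from edgeR are the size of the log2 fold change over the root of F. Those of the arm ratio come from the variances within the groups compared. Replicates are separate cows. The let-7a arm ratio was tested with exact permutation tests, and all arm pairs with limma 3.58.1. Printed normalized counts use DESeq2 1.42.0 size factors over all libraries, so they differ from the deposited ones. The edgeR fits without the cow and the limma fit of the HOLS arm pairs without the block were tested on simulated data. The exact permutation tests, the fits with the block and DESeq2 were not.

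Libraries with the same cow number come from 1 animal, and so the numbers pair the samples. Their deviations from the group means correlated from 0.24 to 0.50 in HOLS cows and from 0.12 to 0.69 in 5 MONT cows, with -0.20 in cow 9615.

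All members are named. Also named were miRNAs encoded beside let-7 genes, the 3 miRNAs most correlated with each arm of let-7a, and the arm pairs with the largest fall and rise in HOLS. The members, lists and rules were chosen with earlier results of these data known. Alternatives were the cow as a block, DESeq2, its size factors, library size only, scaling without the family, no filter, and each cow left out in turn. For the arm ratio they were a pseudocount of 0.5, the sum of let-7a-5p, let-7c and let-7f, and limma. The values with that pseudocount and with that sum are not given here. Leaving out miR-3596 and limma with the block were added after seeing the data.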

Additional observations from a re-analysis of the deposited data

Results flagged for a closer look

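In each of 48 groups of values (each member, the 3p share of let-7a and the family's share, in 4 groups of libraries), the highest and lowest library were compared with the rest by Dixon's criterion. It marked 6 groups, and chance marks about 1 in 20, or 2.4 of 48. In HOLS REST, cow 2182 had the highest let-7a-5p at 323801 normalized counts, with the others from 213863 to 232240, and the highest family share of all counts at 6.46%, with the others from 3.88% to 4.50%. The same cow was highest in HOLS CONT for let-7e, at 3874 against 2408 to 2818. Cow 8200 had the lowest let-7c in HOLS CONT, at 14666 against 18836 to 20323, and the highest 3p share of let-7a, at 0.220% against 0.104% to 0.129%. In MONT REST, let-7a-3p of cow 1640 stood at 198 normalized counts against 120 to 147. For HOLS, the ranges given for the processing below cover let-7a-5p without cow 2182 and the arm ratio without cow 8200. Values of let-7c, let-7e and the family share without these cows are not given there. Nor is the let-7a-3p change in MONT without cow 1640. No difference between the breeds in the change of a member, or of the arm ratio, passed its test.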

How the results depend on the processing

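With the cow as a block, 2 members were called in HOLS (let-7a-3p and let-7i) against 1 without it, no member was called in MONT or for the interaction by either fit, and for the arm ratio the paired exact test and limma with the block kept the differences of -0.82 and -0.77 without passing the threshold, as did limma without the block. The count of members called in HOLS was 0 without a filter and from 0 to 1 with each cow left out, in MONT from 0 to 1, and between breeds in REST from 0 to 1, or 2 with DESeq2. With a cow left out the arm difference ran from -0.96 to -0.70 in HOLS. The exact permutation p there was 0.0286 each time, the smallest that 4 against 4 libraries can give, and 0.0714 adjusted. In MONT the difference ran from -0.94 to -0.61, with an adjusted p of the exact permutation test from 0.0198 to 0.0794. It passed without cow 9615 or cow 1652, at 0.0198 and 0.0397. The difference between breeds ran from -0.11 to 0.21, so its sign is not settled. The let-7a-3p interaction ran from -0.14 to 0.21 with a cow left out and was -0.014 without miR-3596. let-7a-5p in HOLS turned to -0.11 with library size only and ran from -0.030 (without cow 2182) to 0.12 with a cow left out. Library size only moved the median of all miRNAs from 0.02 to -0.15 in HOLS and from 0.03 to 0.15 between breeds in REST. Without miR-143 in the total, the family share was 6.19%, 6.16%, 7.07% and 7.67% in HOLS CONT, HOLS REST, MONT CONT and MONT REST. Signs also turned under some setting for 5 members in HOLS, 3 in MONT, 9 for the interaction, and 3 and 4 between breeds in CONT and REST, none of them called. The cause of these shifts was not tested, except where fewer libraries or miRNAs entered a fit by construction. The depth limits let-7a-3p, with 82 to 422 counts per library.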
